A study of Capra hircus with 9 samples.

Results

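The genes described here are 10 widely used markers of macrophages and monocytes: AIF1, CD14, CD68, CD163, CSF1R, MRC1, TYROBP, FCER1G, LYZ and ITGAM. They were chosen by name, and a member was counted as found where the gene name of a row in the count table equalled it. Of the 10 names, 8 had a row among the 25671 gene rows of the table, and CD163 and LYZ did not. All 8 had enough reads to be tested for a difference between days, among 16098 genes tested.

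Poly(A) RNA was sequenced from the uterus of Liaoning Cashmere goats (Capra hircus), a breed kept for its fibre, at 3 time points around implantation: day 6, day 16 and day 19, with 3 libraries each. No treatment, genotype or sex is named for any of the groups, and the sources used here give neither the event from which the days are counted nor the age of the animals. The tissue is given as uterus in the sample labels, as endometrial epithelium in the title of the series and as testis in a protocol text. Separate animals are not stated for the libraries of a day. The p-values therefore measure only the spread between these libraries, which may be technical.

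Macrophages are resident phagocytes that arise from embryonic precursors and from blood monocytes, and they depend on signals through the receptor CSF1R to survive. In the uterus of ruminants and other mammals they lie mainly in the stroma and around glands, take up dead cells and debris, and are known to change in number and state around implantation. The markers cover several parts of that biology: growth factor receptor, pattern recognition, signalling adaptors, endocytosis, adhesion, and cytoplasmic and lysosomal proteins.

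Gene counts summed to between 8712751 and 11074693 per library, and the 8 members together took between 2112 and 7229 of them. Levels below are CPM, counts scaled to a common library total with edgeR's TMM (trimmed mean of M-values) factors. Beside the 8 members, markers of other cells were abundant: the summed level of 12 smooth muscle markers was between 9940 and 46371 CPM, and that of 12 epithelial markers between 1132 and 2282 CPM. The summed level of 9 testis germ cell markers reached at most 3.07 CPM, and SYCP3, TNP1 and ODF1 were at 0 in all 9 libraries. In such bulk RNA, fewer cells of a type and less RNA per cell cannot be told apart. One library of day 19, its replicate 1, stood apart: ribosomal protein genes took 2.80% of its counts, against 7.45% and 6.40% in the other libraries of day 19 and between 4.15% and 4.89% on the earlier days. Values without that library, and with it as the sole library of day 19, are given below for the members.

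Between day 6 and day 19, 4 members rose and 1 fell. AIF1, CD14, FCER1G and CSF1R were higher on day 19 and MRC1 was lower, while CD68, TYROBP and ITGAM did not pass the test. The 5 members called by edgeR's quasi-likelihood test at a Benjamini-Hochberg adjusted p under 0.05 were 62.5% of the 8, beside 22.9% of all genes tested in the same comparison. Of all genes, 12.7% were called higher and 10.2% lower. The same 5 members were the ones whose day 6 and day 19 libraries did not overlap, again 62.5%, beside 38.5% of all genes. The median log2 fold change of the 8 members was 0.91, and that of all genes tested was 0.02. When libraries were scaled by their totals alone, the median of all genes moved to -0.18 and the share of calls that were higher from 55.6% to 38.9%, and 4 members were called.

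**Figure D1:**
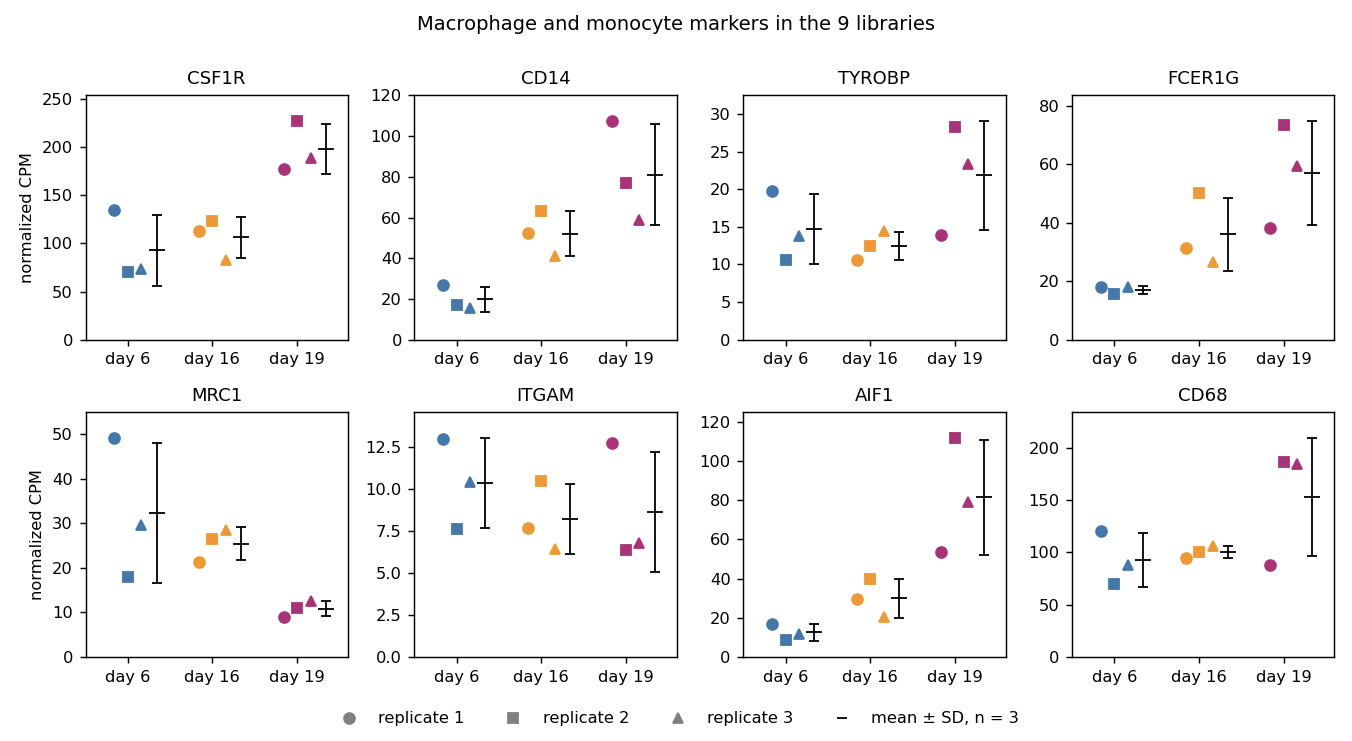
Level of each of the 8 members (vertical axis, TMM-normalized CPM, each panel with its own scale from 0) in the 9 libraries by day (horizontal axis), with replicates by symbol and the mean and SD of 3 libraries per day in black. AIF1, CD14 and FCER1G of day 19 lie above every day 6 library, MRC1 of day 19 lies below every other library, and day 6 replicate 1 is the highest day 6 library in all 8 panels.

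CSF1R (gene identifier 100861303) encodes the receptor for the growth factors CSF1 and IL34, on which most macrophages depend. Its level was 135, 70.1 and 73.0 CPM in day 6 replicates 1 to 3, 113, 124 and 82.4 CPM on day 16, and 178, 227 and 189 CPM on day 19. All 3 libraries of day 19 were above all 6 earlier ones, whereas days 6 and 16 overlapped. The log2 fold change from day 6 to day 19 was 1.10 (SE 0.28, a 2.14-fold rise), with an adjusted p of 0.0210 by edgeR's quasi-likelihood test. That call was lost without day 6 replicate 2 (adjusted p 0.0818), without day 6 replicate 3 (0.0883), without day 19 replicate 2 (0.0676), with scaling by library totals (0.0535) and with day 19 replicate 1 as the sole day 19 library (0.132). From day 16 to day 19 the log2 fold change was 0.90 with an adjusted p of 0.109, and from day 6 to day 16 it was 0.20 with an adjusted p of 0.793.

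CD14 (identifier 100861226) encodes a surface co-receptor that hands bacterial lipopolysaccharide to TLR4. It stood at 26.6, 16.8 and 15.7 CPM on day 6, at 52.2, 63.0 and 41.1 CPM on day 16 and at 108, 77.1 and 58.7 CPM on day 19. Every day 16 and day 19 library was above every day 6 library, and the ranges of days 16 and 19 overlapped. CD14 was the 1 member called between day 6 and day 16, with a log2 fold change of 1.40 (SE 0.29) and an adjusted p of 0.0174 by edgeR. This earlier call was lost without day 6 replicate 2 (0.0806) or 3 (0.0871) and without day 16 replicate 1 (0.0587) or 2 (0.0731). Against day 6, day 19 was 4.11-fold higher, a log2 fold change of 2.04 (SE 0.30, adjusted p 0.0017), and this call held in all 22 alternative settings. The step from day 16 to day 19 did not pass the same test (log2 fold change 0.64, adjusted p 0.206).

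TYROBP and FCER1G encode small membrane adaptors that carry the activating signal of many myeloid and natural killer cell receptors through an immunoreceptor tyrosine-based activation motif (ITAM). FCER1G (identifier 102191004) measured 17.9, 15.5 and 17.8 CPM on day 6, the narrowest day 6 spread of the 8 members, 31.4, 50.2 and 26.6 CPM on day 16, and 38.2, 73.5 and 59.6 CPM on day 19. Day 6 lay below both later days with no overlap, and days 16 and 19 overlapped. From day 6 to day 19 the log2 fold change was 1.74 (SE 0.30, adjusted p 0.0041 by edgeR), a call that held in all 22 alternative settings. From day 6 to day 16 it was 1.07 with an adjusted p of 0.0563.

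TYROBP (identifier 102175151) was at 19.8, 10.6 and 13.8 CPM on day 6, 10.6, 12.4 and 14.4 CPM on day 16, and 14.0, 28.3 and 23.4 CPM on day 19. The 3 days overlapped, with day 19 replicate 1 inside the range of the earlier days and the other libraries of day 19 above it. The log2 fold change from day 6 to day 19 was 0.57 (SE 0.31) with an adjusted p of 0.209 by edgeR's quasi-likelihood test. Without day 19 replicate 1 it was 0.82 with an adjusted p of 0.0228, and with that library as the sole one of day 19 it was -0.07. The difference between TYROBP and FCER1G was not tested.

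MRC1 (identifier 102181218) encodes the mannose receptor, an endocytic receptor of tissue macrophages that some endothelial cells also carry. It measured 49.2, 18.02 and 29.7 CPM on day 6, 21.4, 26.5 and 28.5 CPM on day 16, and 9.03, 10.98 and 12.6 CPM on day 19. The day 19 libraries were the 3 lowest of the 9, and replicate 1 of day 19 was the lowest of them. MRC1 fell by 1.57 on the log2 scale from day 6 to day 19 (SE 0.34), with an adjusted p of 0.0108 by edgeR. With day 19 replicate 1 as the sole day 19 library the adjusted p was 0.0607, the 1 alternative of 22 that lost the call. From day 16 to day 19 the log2 fold change was -1.23 with an adjusted p of 0.0920. The summed level of 11 endothelial markers was between 947 and 1199 CPM on day 6, 1201 and 1507 CPM on day 16, and 778 and 909 CPM on day 19. From day 6 to day 19 the changes of the 11 were positive for 5 and negative for 6, with a median log2 fold change of -0.26. TIE1 and EMCN were called lower (log2 fold changes -0.76 and -0.80), beside 10.2% of all genes, and none was called higher. Those calls were lost in 11 and 5 of 22 settings. The part of endothelial cells in the MRC1 result was not tested.

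ITGAM (identifier 102180100) encodes the alpha M subunit of the integrin Mac-1, which macrophages share with neutrophils and natural killer cells. It had 13.0, 7.62 and 10.4 CPM on day 6, 7.69, 10.5 and 6.40 CPM on day 16, and 12.7, 6.39 and 6.77 CPM on day 19. All 3 days overlapped, and no comparison called it (log2 fold changes -0.34, 0.08 and -0.26 for day 16 against 6, 19 against 16 and 19 against 6, with adjusted p of 0.684, 0.899 and 0.603 by edgeR). Its smallest change, from day 16 to day 19, turned to -0.06 with scaling by library totals. ITGB2, the beta subunit that pairs with ITGAM, averaged 34.5 ± 19.8 CPM on day 6, 48.3 ± 13.7 on day 16 and 46.7 ± 8.65 on day 19 (SD, n = 3) and was not called either (adjusted p 0.560, 0.946 and 0.415 by edgeR).

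AIF1 (identifier 100860979) encodes IBA1, a calcium-binding protein of the macrophage cytoplasm that bundles actin. Its levels were 16.9, 8.75 and 11.7 CPM on day 6, 29.7, 39.6 and 20.1 CPM on day 16, and 53.5, 112 and 79.0 CPM on day 19. AIF1 was the 1 member whose 3 days did not overlap at all, each day lying above the one before. Day 19 exceeded day 6 by a log2 fold change of 2.71 (SE 0.37, a 6.53-fold rise), with an adjusted p of 0.0013 by edgeR, and the call held in all 22 alternative settings (log2 fold change 2.11 to 3.20). The single steps did not pass the test, with log2 fold changes of 1.26 (adjusted p 0.0615) from day 6 to 16 and 1.45 (adjusted p 0.0713) from day 16 to 19.

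CD68 (identifier 102189793) encodes a heavily glycosylated protein of late endosomes and lysosomes. It was at 120.3, 70.0 and 88.0 CPM on day 6, 94.8, 100.3 and 106 CPM on day 16, and 87.5, 186 and 184 CPM on day 19. Replicate 1 of day 19 was at the level of day 6 and the other libraries of day 19 were above all the rest. Over 3 libraries a day the log2 fold change from day 6 to day 19 was 0.72 with an adjusted p of 0.110 by edgeR. Without day 19 replicate 1 it was 1.01 with an adjusted p of 0.00202, and with that library alone as day 19 it was -0.08.

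**Figure D2:**
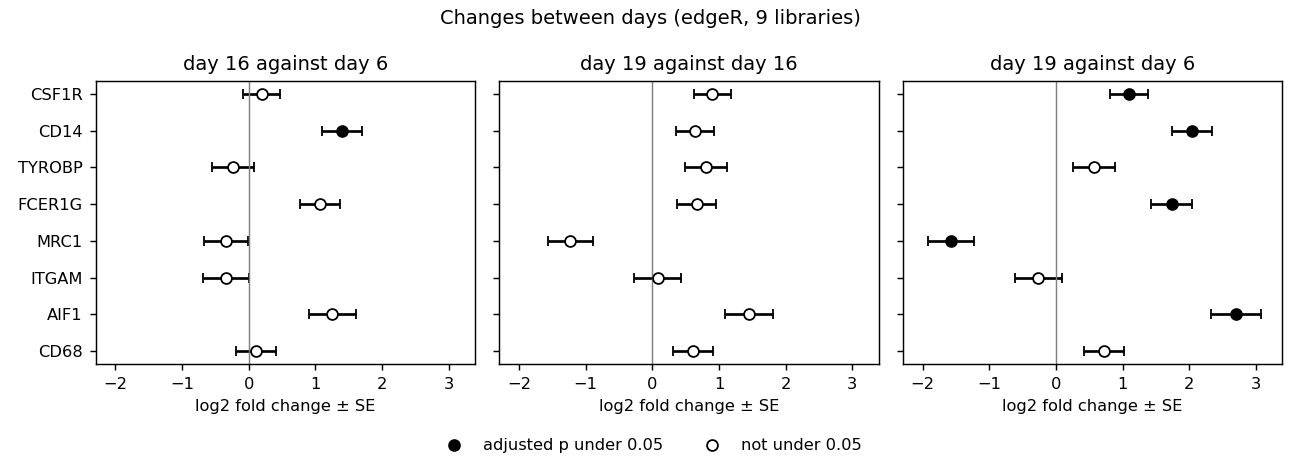
Log2 fold change with its standard error (horizontal axis) of each member (vertical axis) in the 3 comparisons between days, from the edgeR fit to 9 libraries; filled points have an adjusted p under 0.05. Filled points are CD14 alone for day 16 against day 6, none for day 19 against day 16, and AIF1, CD14, FCER1G, CSF1R and MRC1 for day 19 against day 6, with MRC1 on the lower side.

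Between day 6 and day 16, edgeR called 1 of 8 members, beside 8.86% of all genes tested (5.12% higher and 3.74% lower). There 3 members had an unadjusted p under 0.05, as had 3403 of all 16098 genes. AIF1, CD14 and FCER1G were the 3 members (37.5%) whose day 6 and day 16 libraries did not overlap, beside 38.7% of all genes (19.9% with the later day higher), a share near that of the background. Between day 16 and day 19 edgeR called 0 of 8, beside 1.2% of all genes (0.516% higher and 0.683% lower). Unadjusted, 5 members had a p under 0.05 by edgeR, as had 3946 of all 16098 genes. DESeq2 called 3 members, AIF1 and CSF1R higher and MRC1 lower, and 1680 genes over all. Those 3 members (37.5%) were also the ones without overlap between days 16 and 19, beside 23.9% of all genes. Across all 3 days at once, edgeR called 5 of 8 members, beside 19.6% of all genes. The 3 comparisons share libraries, so their values are not independent of each other.

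On day 6 the libraries ranked alike across members, and on day 16 they did not. Day 6 replicate 1 was the highest of its day for all 8 members and day 6 replicate 2 the lowest for 7. The summed level of 12 smooth muscle markers in day 6 replicate 1 was 9940 CPM, against 35954 and 28918 CPM in replicates 2 and 3 of that day. On day 16, replicate 2 was the highest for 5 members, and replicate 3 was the highest for CD68, MRC1 and TYROBP and the lowest for the other 5. On day 19, replicate 1 was the lowest for 6 members and the highest for CD14 and ITGAM. The part of tissue makeup in these ranks was not tested. Without day 6 replicate 1, edgeR called 5 members between day 6 and day 19, and without day 19 replicate 1 it called 7, namely CD68 and TYROBP beside the other 5. Without day 19 replicate 1 it also called 6 members between day 16 and day 19 and 3 between day 6 and day 16, but calls over all genes rose as well, from 193 to 7331 between day 16 and day 19 and from 3684 to 8891 between day 6 and day 19. With day 19 replicate 1 as the sole library of day 19, AIF1, CD14 and FCER1G were the members called between day 6 and day 19. Both that setting and the next were chosen after seeing the data. With the ribosomal protein share as a covariate, 5 members were called between day 6 and day 19 and 2, AIF1 and MRC1, between day 16 and day 19.

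After each day's mean was removed, the correlations between pairs of members across the 9 libraries, given here as a description, went from -0.36 for CD68 with ITGAM to 0.95. CD14 gave r = -0.24 with CD68 and 0.02 with FCER1G. The highest were CD68 with TYROBP at r = 0.95, AIF1 with FCER1G at 0.87, AIF1 with CSF1R at 0.85, CD14 with ITGAM at 0.84, and MRC1 with TYROBP at 0.81. The points of a pair share their library, its depth and its tissue makeup. MRC1 and AIF1 gave r = -0.67 over the days and 0.56 within them.

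Ratios to CSF1R within a library do not depend on the scaling between libraries. Transcript lengths were not used, so a ratio is read for its change between days and not as a proportion. Per 100 CSF1R counts there were 34.3 ± 7.75 MRC1 counts on day 6, 25.0 ± 8.38 on day 16 and 5.52 ± 0.997 on day 19 (SD, n = 3). The MRC1 ratio was 4.83 to 6.67 on day 19 and at least 19.0 in each of the 6 earlier libraries, and day 19 replicate 1 did not stand apart in it. AIF1 went the other way, with 13.7 ± 2.03 counts per 100 CSF1R counts on day 6, 27.6 ± 3.99 on day 16 and 40.4 ± 9.60 on day 19.

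CD14 was higher relative to CSF1R on both later days: it gave 21.7 ± 2.09 counts per 100 CSF1R counts on day 6, 49.1 ± 2.41 on day 16 and 41.8 ± 16.2 on day 19, with no overlap between day 6 and either later day. ITGAM stood at 11.6 ± 2.41, 7.69 ± 0.831 and 4.52 ± 2.32, and day 19 did not overlap day 6. PTPRC (CD45), a tyrosine phosphatase of all leukocytes, gave 52.6 ± 14.3, 51.3 ± 8.93 and 23.0 ± 13.2 counts per 100 CSF1R counts, and its ranges on days 6 and 19 overlapped. Day 19 replicate 1 stood above replicates 2 and 3 in the ratios of CD14 (60.5 against 33.9 and 31.1), ITGAM (7.15 against 2.81 and 3.59) and PTPRC (38.2 against 16.5 and 14.3). The overlap for PTPRC came from that library alone, since the lowest day 6 ratio was 36.4. The ratios were examined after the levels were known and carry no test, and CSF1R itself was called higher on day 19.

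**Figure D3:**
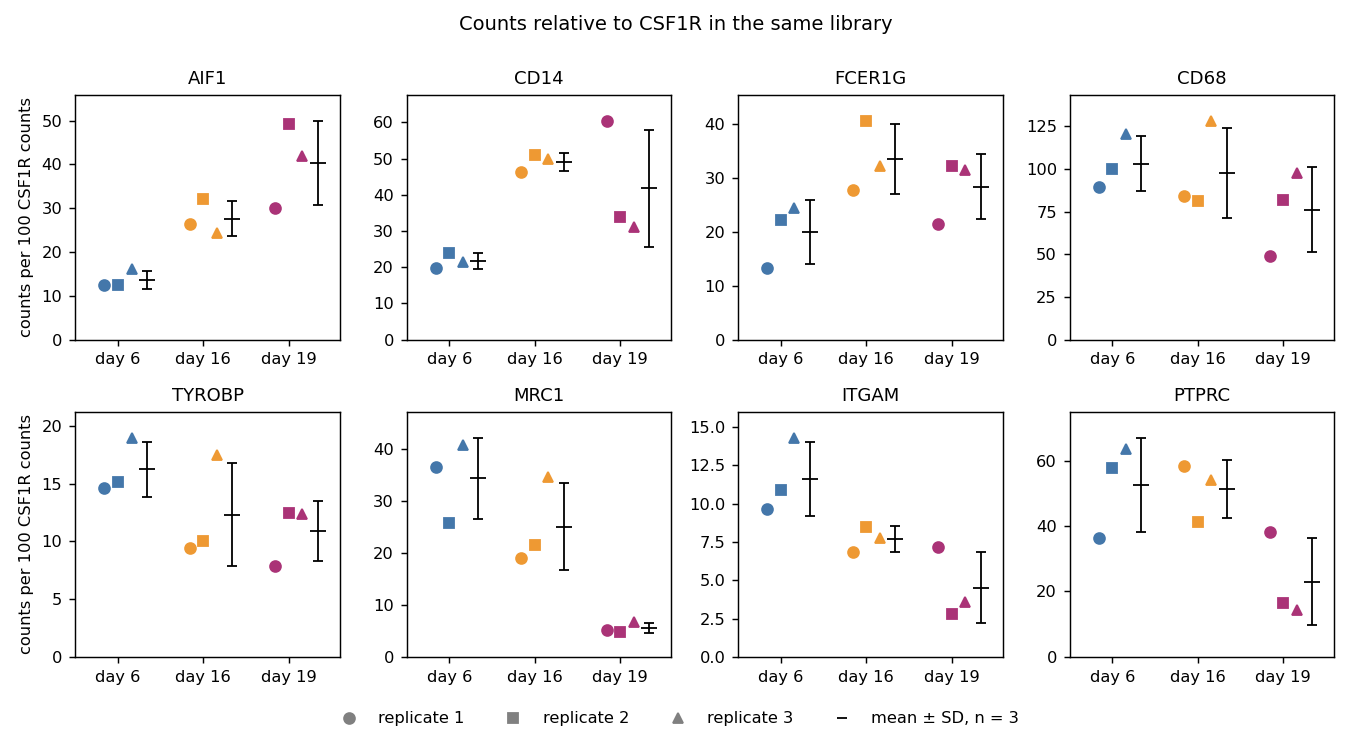
Counts of 7 members and of PTPRC per 100 CSF1R counts of the same library (vertical axis, each panel with its own scale from 0) by day (horizontal axis), with replicates by symbol and the mean and SD of 3 libraries in black. The mean for MRC1 goes from 34.3 on day 6 to 5.52 on day 19 with no overlap, while AIF1 goes from 13.7 to 40.4.

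No row was named CD163, the haemoglobin scavenger receptor of macrophages. Rows outside the rule were looked up after the members' values were seen. By the BLAST match in the deposited annotation, 6 were assigned to the M130 protein, another name for CD163. Of these, 1 row, LOC102183943, is described there as M130-like, and it was the 1 with enough reads to test. The rest are described as antigen WC1.1-like. LOC102183943 measured 18.1, 12.2 and 11.3 CPM on day 6, 22.9, 62.2 and 26.1 CPM on day 16, and 42.5, 39.2 and 35.4 CPM on day 19. Every later library was above every day 6 library, and day 16 replicate 2 was the highest of all. Against day 6 the log2 fold change was 1.49 on day 19 (adjusted p 0.0203 by edgeR) and 1.42 on day 16 (adjusted p 0.0473). The day 19 call was lost without day 6 replicate 2 (0.0766) or 3 (0.0824) and with day 19 replicate 1 as the sole day 19 library (0.0798), and the day 16 call in 12 of 22 settings. Reads can be shared among these related rows, so the level of any single one is uncertain.

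Lysozyme, the antibacterial enzyme encoded by LYZ, has many gene copies in ruminants, and here 8 rows were matched by annotation to lysozyme C with 4 tested. LOC102171764 averaged 8.20 ± 1.92 CPM on day 6, 0.609 ± 0.163 on day 16 and 2.66 ± 2.24 on day 19 (SD, n = 3), and edgeR called it lower on day 16 than on day 6 (log2 fold change -3.72, adjusted p 0.0273). That call was lost under the replicate block (0.0573) and without any single library of day 6 or day 16 (0.0575 to 0.111). LOC102185900 was called lower on day 19 than on day 6 (log2 fold change -4.24, adjusted p 0.0160), on 3 counts against 65 over the 3 libraries of each day, and leaving out either day 6 replicate 2 (0.0530) or day 19 replicate 3 (0.0528) ended the call. LOC102171304 averaged 18.6 ± 8.44, 4.18 ± 1.87 and 17.8 ± 16.9 CPM and S-LZ 1.29 ± 0.332, 2.01 ± 0.815 and 1.68 ± 1.49 CPM on the 3 days, and neither was called. Which of these rows is made in macrophages cannot be told from bulk counts, and reads can be split among them.

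The genes whose pattern over the 9 libraries was most like that of the 8 members were, by Pearson correlation with the mean of the members' scaled log2 CPM among 11167 genes outside the members, C1QA (r = 0.984), C1QC (0.976), C1QB (0.974), LOC102187998 (0.969), LOC102170772 (0.954), LAPTM5 (0.950), ID1 (0.942) and MSR1 (0.941). C1QA, C1QB and C1QC encode the chains of complement C1q, which macrophages secrete, and MSR1 encodes a macrophage scavenger receptor. LOC102187998 is annotated as a class II DM beta chain-like gene and LOC102170772 as a regakine-1-like chemokine. LAPTM5 encodes a lysosomal membrane protein of leukocytes, and ID1 an inhibitor of basic helix-loop-helix transcription factors. The correlations are over 9 libraries that share depth and makeup and carry no test.

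C1QA was at 93.9 ± 52.3 CPM on day 6, 135 ± 42.5 CPM on day 16 and 311 ± 101 CPM on day 19 (SD, n = 3). The log2 fold changes from day 6 to day 19 in the edgeR fit were 1.73 for C1QA, 1.68 for C1QB, 1.90 for C1QC, 2.82 for LOC102170772, 1.27 for MSR1, 0.71 for LAPTM5, 0.76 for LOC102187998 and 0.86 for ID1. With day 19 replicate 1 as the sole library of day 19 they were 1.11 for C1QA, 1.42 for C1QB, 1.25 for C1QC and 1.82 for LOC102170772. These genes were chosen for following the members over the same libraries, so their changes are a description with no test and are not independent evidence of the members' direction.

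**Figure D4:**
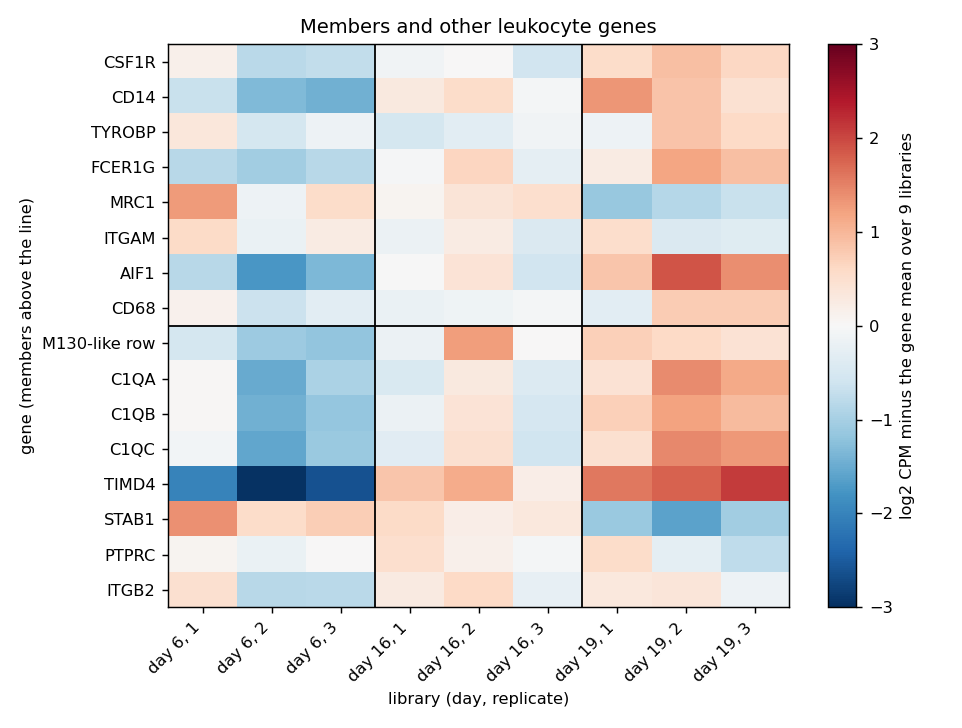
Log2 CPM of the 8 members (above the line) and 8 other rows (below it) as the difference from each gene's mean over 9 libraries (colour, red higher and blue lower), with libraries in columns by day and replicate. C1QA, C1QB, C1QC and AIF1 are blue in day 6 replicates 2 and 3 and red in all 3 day 19 libraries, MRC1 and STAB1 are blue in all 3 day 19 libraries, and TIMD4 has the deepest blue on day 6.

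Of 20 other genes of tissue macrophages, 18 were tested, and 8 were higher and 2 lower on day 19 than on day 6, beside 12.7% and 10.2% of all genes. The median log2 fold change of the 18 was 0.86. TIMD4, a receptor for phosphatidylserine on dying cells, went from 2.70 ± 1.00 CPM on day 6 to 27.3 ± 8.46 on day 16 and 57.2 ± 10.7 on day 19 (SD, n = 3). Its log2 fold changes against day 6 were 3.32 (adjusted p 0.000500) and 4.39 (0.000119) by edgeR. MERTK, a kinase receptor for the uptake of dying cells, averaged 42.7 ± 7.81, 248 ± 35.6 and 188 ± 21.1 CPM, with log2 fold changes of 2.54 (adjusted p 0.000194) and 2.14 (0.000219). STAB1, a scavenger receptor of macrophages and sinusoidal endothelium, fell by 2.20 on the log2 scale from day 6 to day 19 (29.9 ± 9.49 to 6.50 ± 1.31 CPM, adjusted p 0.000860). These calls against day 6 held in all 22 alternative settings.

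STAB1 was also the 1 gene of this list called between day 16 and day 19 (log2 fold change -1.64, adjusted p 0.0409), a call lost in 11 settings. GPNMB, a glycoprotein of lysosome-rich macrophages, was lower on day 19 than on day 6 (log2 fold change -2.11, adjusted p 0.0370), and its call was lost without day 6 replicate 1 (0.119) or 3 (0.0758) and without day 19 replicate 1 (0.0850) or 3 (0.120). With day 19 replicate 1 as the sole library of day 19, 3 genes of the list were called higher and 2 lower. Between day 6 and day 16, TIMD4 and MERTK were the 2 of 18 called, both higher, beside 5.12% of all genes. Leaving out day 6 replicate 1 gave 3 of 18 higher on day 16, and leaving out both day 6 replicate 1 and day 19 replicate 1 gave 10 higher and 1 lower. The latter setting was chosen after seeing the data. Over all genes it called 2856 between day 6 and day 16, against 1427 with all 9 libraries.

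The ligands of CSF1R and the transcription factors of the lineage gave 4 of 11 tested genes higher and none lower on day 19 than on day 6, beside 12.7% and 10.2% of all genes. CSF1 went from 15.1 ± 2.12 CPM on day 6 to 52.1 ± 21.3 on day 16 and 55.3 ± 28.7 on day 19 (SD, n = 3), with log2 fold changes against day 6 of 1.79 (adjusted p 0.0214) and 1.87 (0.00964) by edgeR. IL34, the other ligand, was at 3.70 ± 1.76, 4.002 ± 0.667 and 10.6 ± 2.89 CPM, with a log2 fold change of 1.51 from day 6 to day 19 (adjusted p 0.0242). TFEC, a myeloid transcription factor, was higher on day 19 (2.50, 0.0306). The day 19 call of CSF1 held in all 22 settings. Its day 16 call was lost in 5 settings, each a single library left out, and the day 19 calls of IL34 and TFEC in 7 and 3.

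Partners of CD14 in the lipopolysaccharide receptor gave 5 of 13 tested genes higher and none lower on day 19 than on day 6, beside 12.7% and 10.2% of all genes. Their median log2 fold change was 1.11. TLR4, the signalling receptor, averaged 8.87 ± 3.20 CPM on day 6 and 19.5 ± 6.81 on day 19, and LY96, its MD-2 subunit, 4.18 ± 0.414 and 10.8 ± 2.55 CPM (SD, n = 3). Their log2 fold changes were 1.13 (adjusted p 0.0377) and 1.37 (0.0180), and that of TLR2, a receptor for bacterial lipoproteins, was 1.48 (0.0142), all by edgeR. LBP, which carries lipopolysaccharide to CD14, had 5 counts over the 3 day 6 libraries and 82 over those of day 19, and was called too (adjusted p 0.0137). The calls of LBP and TLR2 were lost without day 6 replicate 1 (adjusted p 0.0594 and 0.0612 by edgeR) or 2 (0.0571 and 0.0599). Those of TLR4 and LY96 were lost in 9 and 6 of 22 settings, and that of LY96 without any single library of day 6 (0.0553 to 0.0699).

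Of the receptors and kinases that work with TYROBP and FCER1G, 3 of 16 tested genes were higher on day 19 than on day 6 and none lower, beside 12.7% and 10.2% of all genes. The same 3 were called higher on day 16, beside 5.12% of all genes. They were FGR and LYN, both Src family kinases, and VAV1, a guanine nucleotide exchange factor of blood cells. For LYN the log2 fold changes against day 6 were 1.30 on day 16 (adjusted p 0.0208) and 1.26 on day 19 (0.0132) by edgeR. Its day 16 call was lost without any single library of day 6 (0.0584 to 0.0935) and without day 16 replicate 1 (0.0768) or 2 (0.0878). The day 19 call of LYN was lost without day 6 replicate 2 (0.0567) or 3 (0.0521). FGR rose from 24.1 ± 6.21 CPM on day 6 to 76.3 ± 14.4 on day 16 and 80.04 ± 10.96 on day 19 (SD, n = 3), a log2 fold change of 1.66 (adjusted p 0.00241) and 1.73 (0.00121) by edgeR, and both calls held in all 22 settings. VAV1 gave 1.50 (0.0431) and 2.03 (0.00679), with its day 16 call lost in 9 settings and its day 19 call lost with day 19 replicate 1 as the sole day 19 library (0.0731).

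Partners of ITGAM gave 2 of 7 tested genes higher on day 19 than on day 6, beside 12.7% of all genes. The 2 were FERMT3, the integrin activator kindlin-3 of blood cells (log2 fold change 1.44, adjusted p 0.00962), and ICAM1, a ligand of the beta-2 integrins (0.78, 0.0259), by edgeR. The ICAM1 call was lost in 5 settings and that of FERMT3 in none. Of 14 lysosomal genes, related to CD68 by location, 3 were higher than on day 6 on each later day, beside 5.12% of all genes on day 16 and 12.7% on day 19.

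Of 10 tested genes of haem and iron handling and relatives of MRC1, 2 were lower and 1 higher on day 19 than on day 6, beside 10.2% and 12.7% of all genes. MRC2, the closest relative of MRC1 in the list, fell by 1.35 on the log2 scale (177 ± 18.1 to 69.1 ± 24.9 CPM (SD, n = 3), adjusted p 0.00471 by edgeR), and this call held in all 22 settings. SLC40A1, the iron exporter ferroportin, fell by 1.35 (184 ± 54.0 to 72.5 ± 7.82 CPM, adjusted p 0.00900), with an adjusted p of 0.106 where day 19 replicate 1 was the sole day 19 library. HMOX1, which breaks down haem, was higher (log2 fold change 0.99, adjusted p 0.0119), a call lost without day 6 replicate 2 (0.0515) or 3 (0.0580). MRC2 is made by fibroblasts and other stromal cells as well. Of 12 fibroblast markers 1 was called on day 19, higher, beside 12.7% of all genes. Their changes from day 6 were positive for 5 and negative for 7, with a median log2 fold change of -0.03. Their summed level was 30148 to 33438 CPM on day 6 and 20768 to 30255 CPM on day 19. The part of fibroblasts in the MRC2 result was not tested.

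Among chemokines that attract monocytes and their receptors, 2 of 8 tested genes were higher on day 19 than on day 6 and none lower, beside 12.7% and 10.2% of all genes. CCL2, the main ligand of CCR2, was at 2.48 ± 0.646 CPM on day 6, 23.8 ± 0.999 on day 16 and 38.8 ± 10.3 on day 19 (SD, n = 3). Its log2 fold changes against day 6 were 3.25 (adjusted p 0.000228) and 3.96 (7.53e-05) by edgeR. CXCL12, the ligand of CXCR4, reached 1.52 on day 19 (adjusted p 0.00208). These calls held in all 22 settings.

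Genes of blood monocytes gave 4 of 12 higher and 1 lower on day 19 than on day 6, with a median log2 fold change of 1.71, and 1 of 12 higher on day 16, with a median of 1.90. Over all genes, 12.7% were higher and 10.2% lower on day 19, and 5.12% higher on day 16. Genes called on day 19 included FCN1 (log2 fold change 5.21, from 4 counts over 3 libraries to 159) and CLEC5A (2.23), both higher, and VCAN (-1.87), lower. The calls of CLEC5A and VCAN were lost in 14 and 3 settings. Without day 6 replicate 1 the list had 1 gene higher and none lower, and with the replicate block 1 higher and 1 lower. Without day 19 replicate 1 it had 2 higher and 1 lower, with a median log2 fold change of 1.05. With that library as the sole one of day 19 the median was 2.30. The summed level of the list was 582 CPM in day 19 replicate 1 and 150 and 146 CPM in replicates 2 and 3, beside 307 to 358 CPM on day 6. The day 16 call was CSF3R, the receptor for granulocyte colony stimulating factor, which neutrophils also carry.

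Other cells can carry some members, and their markers were read beside them. Of 11 tested genes of all or most leukocytes, 8 were higher on day 19 than on day 6 and none lower, beside 12.7% and 10.2% of all genes. Their median log2 fold change was 1.44. Those with the largest changes were NCF1 (2.50), CD53 (2.18), CD48 (2.05) and NCF4 (1.78). PTPRC, the common leukocyte antigen, averaged 45.4 ± 4.43 CPM on day 6, 53.8 ± 10.97 on day 16 and 44.2 ± 21.2 on day 19 (SD, n = 3). It was not called, with adjusted p of 0.763, 0.580 and 0.942 for day 16 against 6, 19 against 16 and 19 against 6 by edgeR. The day 19 mean of PTPRC covers unlike libraries. Replicate 1 was the highest, and replicates 2 and 3 were below every day 6 library. Per 100 CSF1R counts these 3 had 38.2, 16.5 and 14.3 PTPRC counts.

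T and natural killer cell markers, relevant to FCER1G, TYROBP and ITGAM, had 4 of 18 genes higher on day 19 than on day 6 and none lower. Of their changes, 10 were positive and 8 negative. Their summed level was 192 to 224 CPM on day 6, 253 to 374 on day 16 and 253 to 318 on day 19. Of the 4 calls, those of CD247 and CD8A were lost with scaling by library totals (adjusted p 0.0858 and 0.104 by edgeR). They were also lost without day 6 replicate 2 (0.0697 and 0.13) or 3 (0.123 and 0.15). Those of CD7 and CD5 held in all 22 settings. Neutrophil markers, relevant to CD14 and ITGAM, summed to 3.02 to 4.55 CPM on day 6, 9.27 to 20.05 on day 16 and 8.57 to 10.9 on day 19. Of that list 5 of 12 genes were tested, CSF3R and CXCR2 were called higher on day 16 and MMP9 and CSF3R on day 19, each call lost in 3 to 9 settings, and MMP8 was at 0 in all 9 libraries. Mast cell markers, relevant to FCER1G, summed to 22.3 to 28.0, 23.1 to 31.1 and 24.4 to 33.8 CPM, with 1 of 6 genes higher and 1 lower on day 19. Dendritic cell and B cell markers likewise had 1 of 8 higher and 1 of 8 lower each. Of 12 smooth muscle markers 2 were higher on day 19, of 12 epithelial markers 1 was higher and 2 lower, and the 1 germ cell marker tested was not called. Beside all these lists, 12.7% of all genes were higher and 10.2% lower on day 19 than on day 6, and 5.12% were higher on day 16. The part of these cells in the members' results was not tested.

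**Figure D5:**
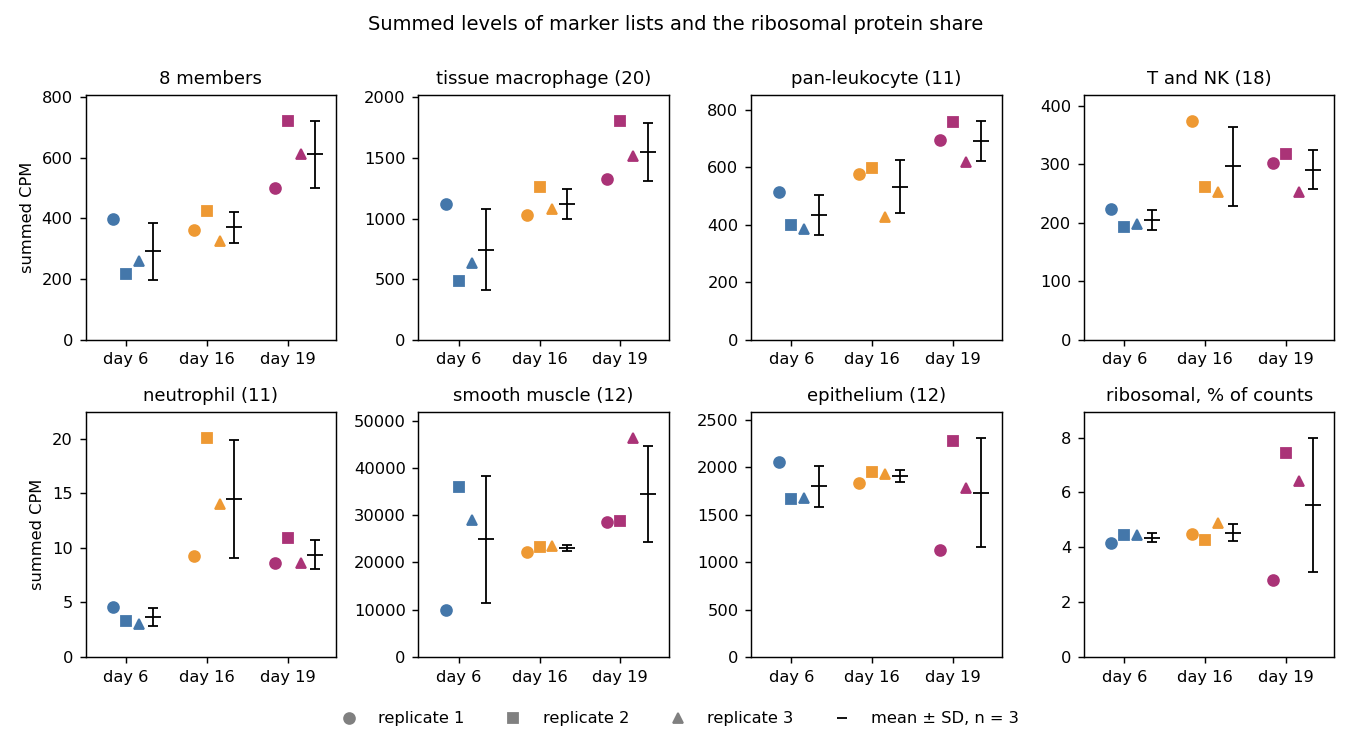
Summed level (vertical axis, CPM, each panel with its own scale from 0) of the 8 members and of 6 marker lists, with the number of rows in brackets, and the percent of counts in ribosomal protein genes, by day (horizontal axis); symbols are replicates and black marks the mean and SD of 3 libraries. The members sum to 217 to 398 CPM on day 6 and 500 to 722 CPM on day 19, smooth muscle markers are lowest in day 6 replicate 1, and the ribosomal protein share is lowest in day 19 replicate 1.

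In all, the 8 members summed to 217 to 398 CPM on day 6, 325 to 426 CPM on day 16 and 500 to 722 CPM on day 19, with day 19 above every earlier library. The sum weighs CSF1R and CD68 most, and MRC1 went against it.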

How the data were processed

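The members and all gene lists were chosen with earlier results of these data known. The authors deposited raw read counts per gene in 1 table with a column for each of the 9 libraries. Per the labels' protocols, poly(A) RNA was cut with RNase III and made into libraries with an Ion Total RNA-seq kit for the Ion Proton. The genome build, gene annotation, aligner, counter and strandedness were not given in the sources used here, so no coordinates or sequences are printed, and genes with near-identical copies are uncertain. Levels are not compared between genes, since transcript lengths were not used. Of 8 members with a row, 7 had the same symbol under their identifier in a RefSeq gene table of assembly ARS1.2, and CD14 had no entry. For 464 rows named by a locus identifier, the symbol was taken from that table. No 2 libraries of the same day agreed within sampling noise.

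Counts were fitted with edgeR 4.0.16 (R 4.3.3): filterByExpr, TMM scaling, a robust quasi-likelihood fit to all 9 libraries with day as the sole term, and Benjamini-Hochberg adjustment over 16098 genes, with calls at an adjusted p under 0.05. The common biological coefficient of variation was 0.318. On data simulated for day 16 against day 6 over 16029 genes, 4% of 2-fold, 64% of 4-fold, 96% of 8-fold and 92% of 16-fold changes were recovered. Alternatives were DESeq2 1.42.0, limma 3.58.1 voom with sample weights, other scalings and filters, a replicate block, the 2 days alone, and libraries left out, 22 in all for each comparison of days. The alternative without both day 6 replicate 1 and day 19 replicate 1 was chosen after seeing the data. Named genes were all members, up to 4 called genes with the largest changes in each of 20 other lists, PTPRC and ITGB2, and the 8 genes most correlated with the members' mean among those with a mean log2 CPM of at least 3 (prior count 2). Libraries sharing a replicate number did not deviate together (correlations from -0.164 to 0.153 over 9 pairs, against -0.134 to 0.200 for other numbers), so no block was used. Results of some genes of the lists are not reported here.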

Additional observations from a re-analysis of the deposited data

How the results depend on the processing

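Of the members' calls between day 6 and day 19, those of AIF1, CD14 and FCER1G held in all 22 alternatives, that of MRC1 in 21 and that of CSF1R in 17. Members called in that comparison numbered 4 to 7 with each library left out and 3 with day 19 replicate 1 as the sole day 19 library. Between day 6 and day 16 they numbered 0 to 3 with each library left out. They numbered 3 there by DESeq2, by limma voom, with the 6 libraries of those days alone, without both day 6 replicate 1 and day 19 replicate 1, with day 19 replicate 1 as the sole day 19 library, and with the ribosomal protein share as a covariate. Between day 16 and day 19 they numbered 0 to 6 with each library left out, 3 by DESeq2, 6 by voom, 6 without both libraries and 2 with the covariate. For any difference among the days they numbered 3 to 7 with each library left out, 7 by voom, 7 without both libraries, and 3 with day 19 replicate 1 alone. The causes were not tested, beyond the smaller number of libraries where some were left out.

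The replicate block, although the numbers were not found to pair the libraries, called 5 members between day 6 and day 19, 1 between day 6 and day 16, 0 between day 16 and day 19 (5 at an unadjusted p under 0.05) and 4 across the days.

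Log2 fold changes that reversed were in comparisons that did not call the member. With each library left out, day 16 against day 6 ranged from -0.05 to 0.35 for CD68, -0.63 to 0.10 for MRC1 and -0.43 to 0.03 for TYROBP, and day 19 against day 16 from -0.30 to 0.29 for ITGAM. The reversals came for CD68 without day 6 replicate 2 and for MRC1 and TYROBP without day 6 replicate 1, or 0.10 and 0.04 without day 19 replicate 1 too. ITGAM gave -0.06 with library totals, -0.26 with voom, -0.09 without day 16 replicate 3 and -0.34 without both libraries, and CD68 -0.20 with day 19 replicate 1 alone. With that library alone, day 19 against day 6 gave -0.08 for CD68, 0.30 for ITGAM and -0.07 for TYROBP.

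Over all genes, 1427, 193 and 3684 were called for day 16 against 6, 19 against 16 and 19 against 6. DESeq2 called 2235, 1680 and 4887, voom 3811, 7354 and 9433, the 2 days alone 3092, 0 (2726 at an unadjusted p under 0.05) and 2357, the block 1100, 0 (3572 unadjusted) and 2899, the covariate 3078, 2128 and 5278, and day 19 replicate 1 alone 3089, 180 and 3416. With each library left out the counts were 664 to 3345, 0 to 7331 and 1928 to 8891, the highest each without day 19 replicate 1.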

Other observations

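Calgranulin genes, which monocytes and neutrophils carry, had few counts on day 6 and differed between the libraries of day 16. S100A12 had 4, 0 and 3 counts in day 6 replicates 1 to 3, 2, 70 and 34 on day 16, and 14, 20 and 14 on day 19. S100A8 had 2, 1 and 1, then 4, 23 and 11, then 11, 1 and 1. Neither was called between any days by edgeR (S100A12 adjusted p 0.0629, 0.424 and 0.112, S100A8 0.103, 0.293 and 0.326, for day 16 against 6, 19 against 16 and 19 against 6). Day 16 replicate 2, highest for both, was also highest of its day for CD14, FCER1G, AIF1, CSF1R and ITGAM. CXCR2, a chemokine receptor of neutrophils, was higher on day 16 than on day 6 (0.595 ± 0.293 to 2.69 ± 0.693 CPM (SD, n = 3), log2 fold change 2.16, adjusted p 0.0326 by edgeR), a call lost in 8 settings, among them leaving out any single library of day 6 or day 16. S100A8, S100A12 and CXCR2 were named after their values were seen.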
